A study of Mus musculus with 4 samples.

Results

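The cells described here carried transcripts of Pecam1, which encodes the endothelial adhesion protein CD31, and of Acta2, which encodes smooth muscle α-actin, in the same well. They came from SORT-seq, in which single cells are sorted into a 384-well plate and the polyadenylated RNA of each well is counted by unique molecular identifiers (UMIs, random tags that each mark 1 captured RNA molecule). Aortas of 4 mice were digested and CD31+ CD45- TO-PRO-3- cells, that is viable cells with the endothelial and without the leukocyte surface marker, were sorted onto 1 plate per mouse. EC-KO 1 and EC-KO 2 were Epas1 EC-KO mice, with the genotype Epas1fl/fl, Cdh5Cre/+, in which a tamoxifen-dependent Cre recombinase is driven by the endothelial gene Cdh5. EC-WT 1 and EC-WT 2 were Epas1 EC-WT littermates, with the genotype Epas1fl/fl, Cdh5+/+, which have the floxed allele and no Cre. All mice, whatever their genotype, were given tamoxifen when 6 weeks old, and aortas were taken after a further 2 weeks. With 1 plate per mouse, the mouse and its plate cannot be told apart.

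A well was kept as a cell when it held at least 1000 UMIs outside the spike-in and mitochondrial rows and at most 25% of its UMIs were mitochondrial. A kept cell was a member when it held at least 3 Acta2 UMIs and at least 3 Pecam1 UMIs, so the members were selected on these measured values, which carry no test. This gave 103 members among 441 kept cells. EC-KO 1 had 28 of 157, EC-KO 2 had 58 of 98, EC-WT 1 had 6 of 114 and EC-WT 2 had 11 of 72. Cells with at least 3 Pecam1 UMIs and 0 Acta2 UMIs, called Acta2-negative here, numbered 170 (47, 5, 84 and 34 in the same order of mice). The other kept cells were 148 with at least 3 Pecam1 and 1 or 2 Acta2 UMIs, 8 with at least 3 Acta2 and under 3 Pecam1 UMIs, and 12 with under 3 of both.

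Vascular endothelial cells line the inner face of the aorta, and CD31, VE-cadherin (Cdh5) and von Willebrand factor (Vwf) are their usual markers. Smooth muscle cells of the aortic wall contract through α-actin, the smooth muscle myosin heavy chain (Myh11), the myosin light chain Myl9 and actin-binding proteins such as transgelin (Tagln) and calponin (Cnn1), and many of these genes are driven by serum response factor, which binds the CArG box. Acta2 is also a customary readout of endothelial-to-mesenchymal transition, in which endothelial cells gain mesenchymal transcripts such as Vim, Fn1 and the collagens while losing endothelial ones.

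Acta2 (chr19:34241090-34255590, minus strand, GRCm38) is the gene that chose the members, and Myl9 had the largest fitted difference of the other genes between all members and all Acta2-negative cells, so their promoters are shown. The sequences come from RefSeq on GRCm38.p6 and span 250 bases before to 50 after the annotated start, at chr19:34255324-34255623 on the minus strand for Acta2 and at chr2:156775214-156775513 on the plus strand for Myl9. The gene span given for Acta2 is that of GENCODE, which starts further upstream than the RefSeq start used for this window. Capitals mark each CArG-like match, CCNNNNNNGG with at most 1 of the 6 inner bases other than A or T, a pattern that reads alike on both strands.
Acta2 promoter: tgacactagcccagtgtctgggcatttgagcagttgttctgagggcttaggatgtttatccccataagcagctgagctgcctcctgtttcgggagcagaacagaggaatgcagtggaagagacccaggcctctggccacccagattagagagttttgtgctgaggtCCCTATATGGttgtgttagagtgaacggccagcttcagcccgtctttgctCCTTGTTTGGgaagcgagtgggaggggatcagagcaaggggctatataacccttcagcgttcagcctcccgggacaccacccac
Myl9 promoter: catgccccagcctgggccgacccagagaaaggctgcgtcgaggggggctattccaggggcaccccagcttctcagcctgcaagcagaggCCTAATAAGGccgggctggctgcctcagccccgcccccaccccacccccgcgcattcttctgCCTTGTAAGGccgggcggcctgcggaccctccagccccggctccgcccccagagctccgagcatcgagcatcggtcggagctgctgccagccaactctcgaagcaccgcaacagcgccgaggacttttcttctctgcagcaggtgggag
The Acta2 matches, CCCTATATGG and CCTTGTTTGG, lay 84 and 34 bases before the start, and the Myl9 matches, CCTAATAAGG and CCTTGTAAGG, 161 and 99 bases before it. Of the smooth muscle list with Acta2 included, 16 genes had a promoter in the table and 3 of them (Acta2, Myl9 and Pcp4l1) held such a match, against 9.98% of all 32851 promoters of that length. A match describes these letters only, and whether a factor was bound was not measured.

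The plates held 910699 to 1475546 UMIs each, and the kept cells a median of 3779 to 7419 UMIs. The same well barcodes were used on every plate, so 136 of the 219 barcodes of kept cells recurred on more than 1 plate. Epas1, the gene that Cre removes, stood at 2930 and 3148 CPM in the kept cells labelled EC-KO and at 3324 and 2351 CPM in those labelled EC-WT. CPM here are the UMIs of a gene or list in a class of cells, scaled to a common total of 1000000 UMIs outside spike-in and mitochondrial rows. The ranges of the genotypes overlapped, and 3′-tag counts do not show whether the floxed exon was lost, so genotype is given below as labelled. By real-time PCR of endothelial RNA and by en face staining, the paper reports deletion of Epas1 in tamoxifen-treated EC-KO mice. The study's methods give more cells to the EC-WT than to the EC-KO group. The kept cells here fell the other way, with 157 and 98 in the mice labelled EC-KO and 114 and 72 in those labelled EC-WT. The reason was not tested, and this bears on every comparison by genotype.

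The members formed 2 uneven sets, separated here by whether Acta2 or Pecam1 had more UMIs, a split chosen with the values known. In 15 members (5 in EC-KO 1, 6 in EC-KO 2, 3 in EC-WT 1 and 1 in EC-WT 2) Acta2 exceeded Pecam1, and these are called Acta2-rich. They held 10 to 1181 Acta2 UMIs (median 123) and 3 to 60 Pecam1 UMIs (median 8). In the other 88 (23, 52, 3 and 10) Acta2 did not exceed Pecam1. These Acta2-low members held 3 to 27 Acta2 UMIs (median 5) and 5 to 221 Pecam1 UMIs (median 50.5). At the rule's edge, 22 members held exactly 3 Acta2 UMIs and 51 cells with at least 3 Pecam1 held exactly 2, with 58.8 and 102 CPM of Tagln, 42.7 and 22.5 CPM of Myh11, and 401 and 480 CPM of Cdh5. At the other edge stood 3 members with exactly 3 Pecam1 UMIs and 1 cell with exactly 2.

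**Figure D1:**
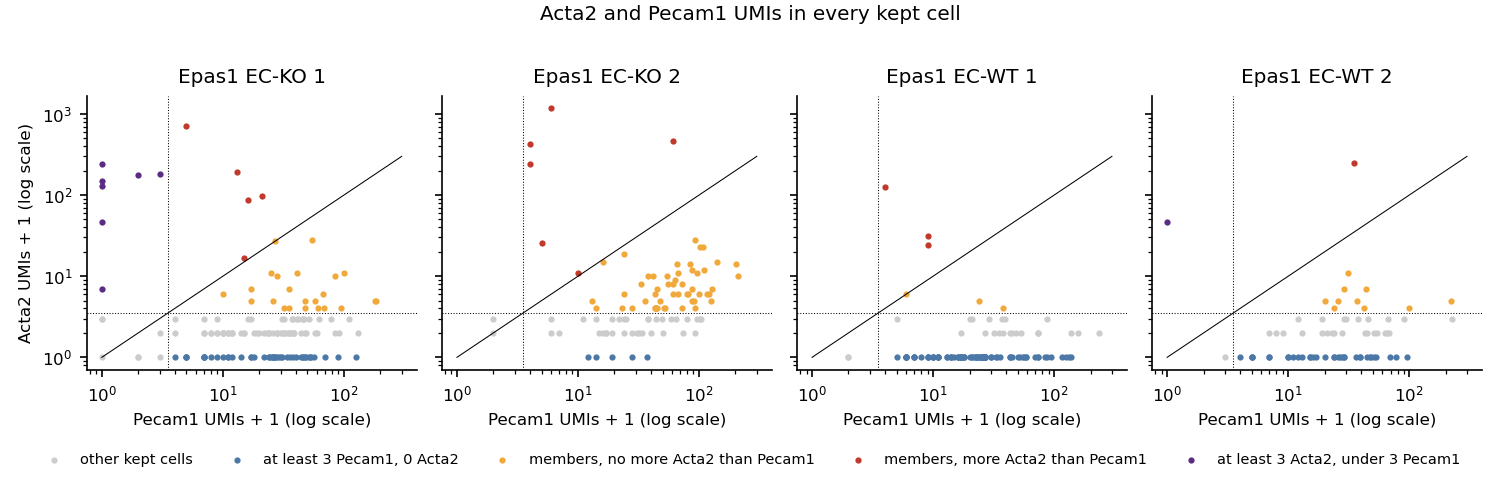
Acta2 UMIs against Pecam1 UMIs in every kept cell, 1 panel per mouse, each axis being the UMI count plus 1 on a log scale; the dotted lines mark the rule of at least 3 UMIs and the solid line equal counts. The 15 red Acta2-rich members reach 1181 Acta2 UMIs, while the 88 orange Acta2-low members end at 27, and EC-KO 2 has few blue Acta2-negative cells (5).

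The other markers separated these sets. Tagln, an actin-binding protein of contractile cells, was counted in 14 of 15 Acta2-rich members and Myh11 in 14, and 13 had both. Of the 88 Acta2-low members, 47 held no Tagln UMI, 54 no Myh11 UMI and 30 neither. Cdh5 was counted in 9 of 15 and in 80 of 88. Tagln, Myh11 and Cdh5 were counted together in 7 Acta2-rich and 16 Acta2-low members, 13 of the latter in EC-KO 2. The presence of Acta2 and Pecam1 was fixed by the rule. Of the markers that it did not use, Cdh5 was counted in 89 of the 103 members, and both Tagln and Myh11 were absent from 30.

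Deep cells show more genes, so each cell was also thinned to 1000 UMIs and the expected share of cells with a UMI computed. After thinning, Tagln would be seen in 92.3% of Acta2-rich members, 10.7% of Acta2-low members and 3.38% of Acta2-negative cells (93.3%, 46.6% and 13.5% before thinning). For Myh11 the thinned shares were 78.2%, 5.25% and 2.42% (93.3%, 38.6% and 10.6% before), and for Myl9 they were 78.2%, 2.66% and 0.92% (93.3%, 17% and 2.94% before). Cdh5 ran the other way, at 13.5%, 32.8% and 49.2% (60.0%, 90.9% and 89.4% before), and so did Vwf, at 23.5%, 76.5% and 76.9% (60.0%, 97.7% and 92.9% before). Pooled over mice, on all 5 genes the thinned share of the Acta2-low members lay nearer to that of the Acta2-negative cells than to that of the Acta2-rich members. The mice weigh unequally in these pooled shares, since EC-KO 2 gave 52 of the 88 Acta2-low members and EC-WT 1 84 of the 170 Acta2-negative cells. Within mice, the thinned Tagln share of Acta2-low against Acta2-negative cells was 15.5% against 7.47% (EC-KO 1), 8.96% against 7.82% (EC-KO 2), 8.02% against 0.316% (EC-WT 1) and 8.98% against 4.62% (EC-WT 2). These shares rest on 74, 52, 1 and 5 Tagln UMIs in the Acta2-low members against 39, 2, 3 and 11 in the Acta2-negative cells (EC-KO 1, EC-KO 2, EC-WT 1 and EC-WT 2), so no order can be read in EC-KO 2 and EC-WT 1. The summed level was 265 against 142 CPM in EC-KO 1 and 44 against 56.4 CPM in EC-WT 2. The thinned Cdh5 share was lower in Acta2-low members in 3 of 4 mice, and in EC-KO 2 it was 35.9% against 30.7%. The median depth was 7368 UMIs in the Acta2-rich, 9880 in the Acta2-low and 3779 in the Acta2-negative cells. In the 8 cells with Acta2 and under 3 Pecam1 UMIs (median 3372.5 UMIs), Cdh5 was counted in 12.5% and Vwf in none. Counts of this kind carry no test here, because Acta2 itself defined the sets.

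Summed over each mouse, the smooth muscle list (20 genes without Acta2) stood at 29875, 34663, 54505 and 16255 CPM in the Acta2-rich members of EC-KO 1, EC-KO 2, EC-WT 1 and EC-WT 2. In the Acta2-low members it stood at 1334, 1172, 1145 and 1232, and in the Acta2-negative cells at 1103, 1259, 1077 and 1077. The ranges of the last pair overlapped. In the 8 cells with Acta2 and under 3 Pecam1 UMIs the list reached 56028 (7 cells of EC-KO 1) and 51546 (1 cell of EC-WT 2). The Acta2-rich members were therefore below those cells in EC-KO 1 and EC-WT 2, the mice that had both kinds.

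The endothelial list (20 genes without Pecam1) stood at 3936, 3620, 3283 and 6489 CPM in the Acta2-rich members. It stood at 11756, 14598, 15260 and 12509 in the Acta2-low members, and at 13270, 11440, 14396 and 14752 in the Acta2-negative cells. All 4 Acta2-rich sums lay below both other ranges, which overlapped each other. In the cells with Acta2 and under 3 Pecam1 UMIs the list was at 607 (EC-KO 1) and 0 (EC-WT 2).

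Cell by cell, the Acta2-rich members did not form 1 level. In 5 of them (1 in EC-KO 1, 3 in EC-KO 2 and 1 in EC-WT 1) the endothelial list was at 203 to 749 CPM, with 3 to 5 Pecam1 UMIs and 38788 to 106042 CPM of smooth muscle transcripts. In the other 10 the endothelial list was at 4397 to 9654 and the smooth muscle list at 1150 to 32744, with 4 to 60 Pecam1 UMIs. No Acta2-negative cell reached under 5970 on the endothelial list, and 6 of the 8 cells with Acta2 and under 3 Pecam1 UMIs lay under 1000. The 5 members with few endothelial transcripts thus resembled the latter on both lists, and the other 10 reached from the upper edge of the Acta2-negative cells towards them, with 1 at 1150 inside their range. Of the 103 members, 11 held over 3 times the median UMIs of their plate (3 Acta2-rich, at 3.6, 5.10 and 6.42 times, and 8 Acta2-low). No doublet caller was run, and whether any well held 2 cells was not tested.

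**Figure D2:**
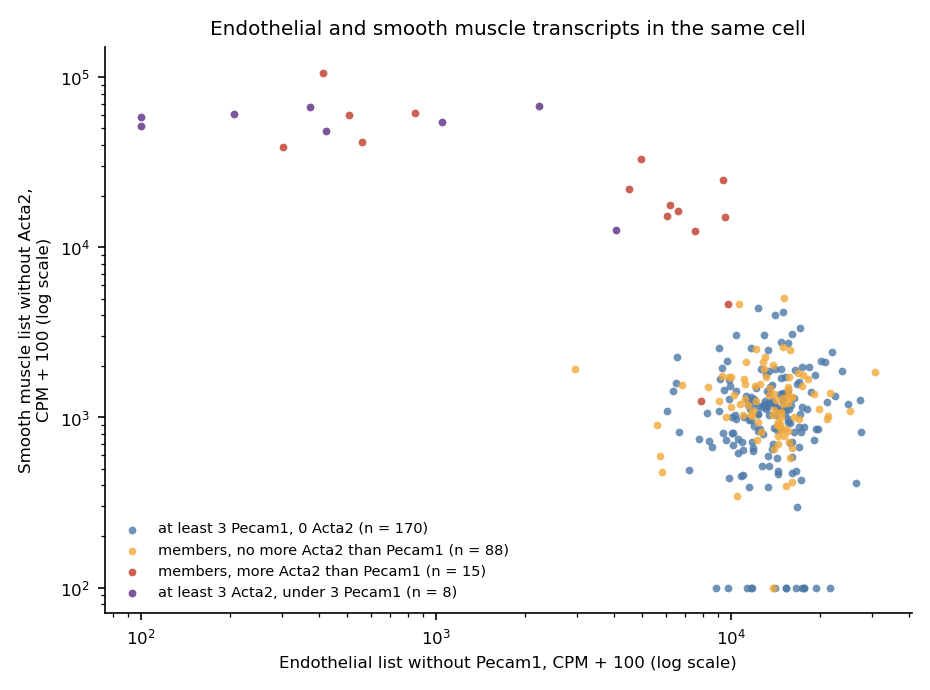
Smooth muscle list without Acta2 against endothelial list without Pecam1 in single cells, both in CPM plus 100 on log scales, coloured by the Acta2 and Pecam1 counts that define the classes. The 88 Acta2-low members lie in or near the cloud of the 170 Acta2-negative cells, while the 15 Acta2-rich members spread from that cloud to the 8 cells with Acta2 and under 3 Pecam1 UMIs.

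Other cell types were read from marker lists in the same way, over all 4 mice. The pericyte list (9 genes) was at 1821 CPM in the Acta2-rich members, 109 in the Acta2-low members and 125 in the Acta2-negative cells. The fibroblast list (12 genes) was at 8037, 2411 and 1831. In EC-KO 1 the Acta2-rich value was 14580, and 742 of those UMIs came from 1 cell. The immune list (5 of its 9 genes were in the tables) was at 55.9, 13.6 and 16.9, and Ptprc, which encodes the sorting marker CD45, was at 0 in every member. The mesenchymal transition list (12 genes, among them Vim and Fn1) was at 9958, 6244 and 6044, with 7224 to 13305 in the Acta2-rich, 5570 to 7328 in the Acta2-low and 2901 to 7409 in the Acta2-negative cells of single mice. The ranges of all 3 classes overlapped. The part of any of these cell types in the results below was not tested.

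The ratio of Tagln to Acta2 was set out in the same way, as a description only, since Acta2 chose the cells and a minimum of 3 Acta2 UMIs lowers the ratio. In the Acta2-rich members there were 49, 41.1, 83.5 and 29.3 Tagln UMIs per 100 Acta2 UMIs in EC-KO 1, EC-KO 2, EC-WT 1 and EC-WT 2. In the Acta2-low members there were 44.8, 13.2, 8.33 and 10.6. Over all cells with at least 3 Pecam1 UMIs and no more Acta2 than Pecam1, which drops the Acta2 minimum, there were 57.8, 16.3, 29.3 and 40.7. The last values lay below those of the Acta2-rich members in EC-KO 2 and EC-WT 1 and above them in EC-KO 1 and EC-WT 2. In EC-KO 1, 41 of the 74 Tagln UMIs of the Acta2-low members came from 1 cell, which also held 26 Acta2 and 26 Pecam1 UMIs.

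A deposited table of reads shows how often each UMI was read. A molecule copied at the start of library preparation is usually read many times, so Acta2 was called read-supported in a cell when its reads per UMI reached 50% of that cell's own reads per UMI, a limit chosen after the values were seen. In the Acta2-rich members Acta2 had 30.8, 49.1, 39.2 and 56.3 reads per UMI in EC-KO 1, EC-KO 2, EC-WT 1 and EC-WT 2, and 14 of 15 were read-supported. In the Acta2-low members it had 20.9, 6.77, 58 and 46.5, and 32 of 88 were read-supported. In EC-KO 2, 44 of 52 Acta2-low members had under 2 reads per Acta2 UMI, with a median of 1.14 against 18.6 over all genes of the same cells, while Pecam1 had 29.8. The numbers in the other mice were 7 of 23 (EC-KO 1), 0 of 3 (EC-WT 1) and 3 of 10 (EC-WT 2). Over all cells with at least 1 Acta2 UMI, at least 3 Pecam1 UMIs and no more Acta2 than Pecam1, 62.6%, 87.1%, 64% and 68.6% had under 2 reads per Acta2 UMI in EC-KO 1, EC-KO 2, EC-WT 1 and EC-WT 2. Such UMIs were thus frequent on every plate, and most frequent in EC-KO 2. Myh11 in the Acta2-low members had 1.33, 1.57 and 1.5 reads per UMI where it was counted (EC-KO 1, EC-KO 2 and EC-WT 2), against 22.4, 38 and 30.8 in the Acta2-rich members. Wells with under 200 UMIs, which were kept as no cell, held 53, 91, 5 and 19 Acta2 UMIs in EC-KO 1, EC-KO 2, EC-WT 1 and EC-WT 2, in the same order of mice as the number of members. The part of Acta2 RNA from outside the sorted cell in the members' counts was not tested.

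**Figure D3:**
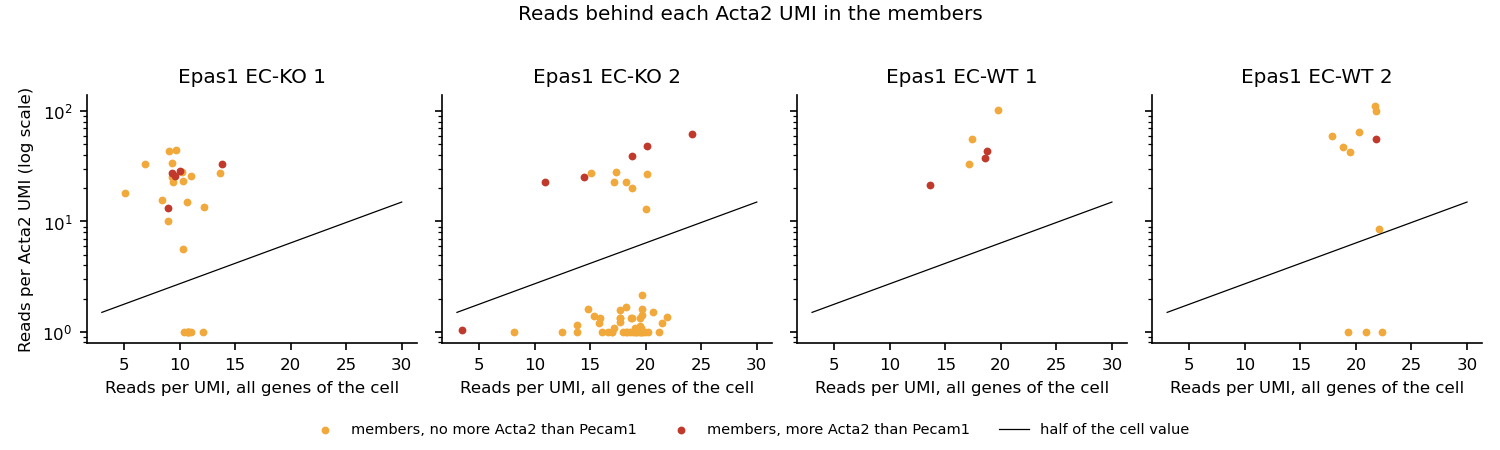
Reads per Acta2 UMI (log scale) against reads per UMI over all genes of the same cell, for each member, 1 panel per mouse; the line marks 50% of the cell's own value. In EC-KO 2 most orange Acta2-low members sit near 1 read per Acta2 UMI, whereas in EC-WT 1 all 6 members lie above the line.

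Acta2 counts also followed the depth of the cell more in EC-KO 2 than on the other plates. Over cells with at least 3 Pecam1 UMIs and no more Acta2 than Pecam1, Spearman's rho between Acta2 UMIs and total UMIs was 0.70 in EC-KO 2 (90 cells) and 0.29, 0.28 and 0.33 in EC-KO 1, EC-WT 1 and EC-WT 2 (138, 109 and 69 cells). These are descriptions over cells that share a library. The members held a median of 9172.5, 10258.5, 3011 and 8760 UMIs, against 5381, 3470, 3323.5 and 3952 in the Acta2-negative cells of the same mice.

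The first comparison asked whether members were more frequent in 1 labelled genotype. The share of kept cells that were members was 17.8% (exact 95% binomial interval 12.2 to 24.7) in EC-KO 1 and 59.2% (48.8 to 69) in EC-KO 2. It was 5.26% (1.96 to 11.1) in EC-WT 1 and 15.3% (7.88 to 25.7) in EC-WT 2. The means were 38.5% ± 29.2 and 10.3% ± 7.08 (SD, n = 2 mice each), a difference of 28.2 percentage points, and the genotypes did not overlap. A 2-sided exact permutation test gave p = 0.333, the smallest value that 2 against 2 mice allow, so the difference could not pass 0.05.

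The names of the deposited tables place EC-KO 2 and EC-WT 1 on the same sequencing flow cell and the other mice each on another. Between those 2 mice the difference was 53.9 points. The size of the difference rested on EC-KO 2. Without that mouse it was 7.56 points. Counting read-supported members alone, the shares were 13.4%, 12.2%, 5.26% and 9.72% in the order EC-KO 1, EC-KO 2, EC-WT 1 and EC-WT 2, a difference of 5.32 points. With every cell thinned to 2000 UMIs (leaving 141, 89, 84 and 59 cells), the expected shares were 6.58%, 11.9%, 3.03% and 4.59%, a difference of 5.43 points. The genotypes did not overlap in either case, and the exact p stayed at 0.333. The Acta2-rich share was 3.18%, 6.12%, 2.63% and 1.39%, with the interval of each mouse overlapping those of the others.

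**Figure D4:**
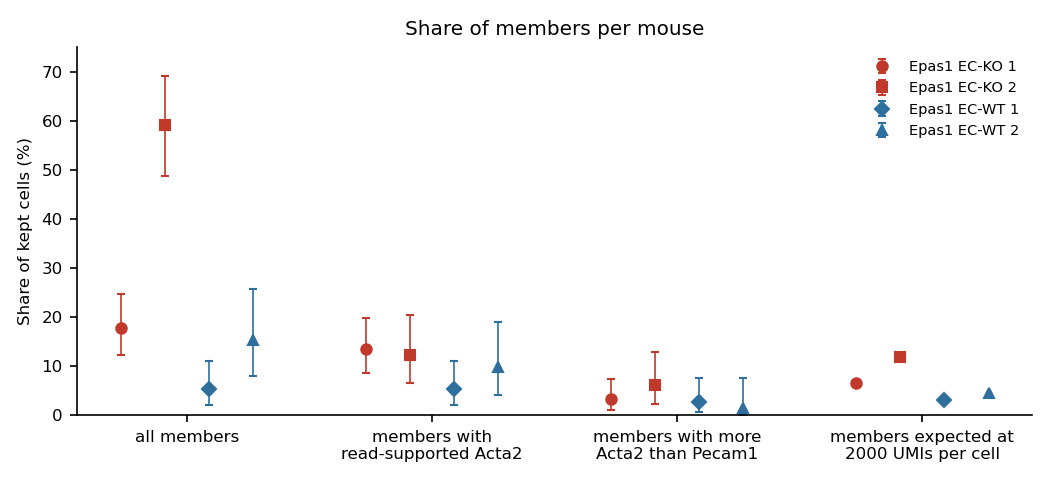
Share of kept cells (%) in each mouse under 4 definitions, with exact 95% binomial intervals where a count was made and no interval for the expected share at 2000 UMIs. All members reach 59.2% in EC-KO 2, and read-supported members 13.4% at most.

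The main comparison asked which transcripts differed between members and Acta2-negative cells of the same mouse. Each member was paired with 1 Acta2-negative cell of the same mouse whose UMI total lay within a factor of 1.5, which paired 24, 5, 6 and 10 of the 28, 58, 6 and 11 members. The paired cells were summed per mouse and tested with edgeR's quasi-likelihood test with mouse as a block and Benjamini-Hochberg adjustment. The Acta2-rich members supplied 5, 1, 3 and 1 of the paired members, and EC-KO 2 entered with 5 pairs because it had 5 Acta2-negative cells. The paired members held a median of 7723.5, 4943, 3011 and 8459.5 UMIs, against 7807, 3470, 2929.5 and 7895.5 in their partners. Depth was thus matched least closely in EC-KO 2, where the members were deeper. Of 938 genes tested, Acta2 and Pecam1 left out, 10 (1.07%) were called at an adjusted p under 0.05. All 10 were higher in members and none was lower, with 61 genes in either direction at an unadjusted p under 0.05. DESeq2 called 6 and total-count normalization 7, all higher. Leaving out Rn45s or EC-WT 1 gave Fabp4 as a lower call. A minimum of 2000 UMIs or leaving out EC-KO 2 also gave 1 lower gene.

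Of the contractile genes, Tagln held 605, 9, 148 and 78 UMIs in the paired members of EC-KO 1, EC-KO 2, EC-WT 1 and EC-WT 2, against 15, 2, 0 and 5 in their partners. It was 5.07 ± 0.51 higher on the log2 scale (± SE, adjusted p = 1.04e-05). Myh11 held 263, 5, 48 and 31 UMIs against 9, 0, 0 and 4, a rise of 4.58 ± 0.45 (adjusted p = 2.76e-10). Acta2, itself a contractile gene, chose the members, and both genes could be tested mainly through the members. These p-values are therefore given as part of the fit and are no independent support. The Acta2-rich members carried most of the Tagln counts, since the Acta2-low members paired anew held 73, 1, 1 and 5 Tagln UMIs. Both genes were higher in 4 of 4 mice, and in EC-KO 2 both rested on under 10 UMIs, read 1.11 and 1.20 times each. Tpm1, a tropomyosin that lies along actin filaments, rose by 1.44 ± 0.36 (adjusted p = 0.022) and was higher in 3 of 4 mice. Cald1, the actin-binding caldesmon, was 0.90 ± 0.30 higher with an adjusted p of 0.25.

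The other calls belonged to no single list. Igfbp7, a secreted binding protein of insulin-like growth factors, held 417, 28, 61 and 99 UMIs against 34, 3, 12 and 25 and rose by 2.69 ± 0.30 (adjusted p = 8.98e-09). Lpp, a focal adhesion protein, rose by 2.10 ± 0.39, Flna, the actin crosslinker filamin A, by 1.73 ± 0.29, Dstn, the actin-severing destrin, by 1.17 ± 0.29, and Actb, cytoplasmic β-actin, by 1.11 ± 0.26 (adjusted p of 5.33e-04, 9.82e-05, 0.022 and 0.014). Each of these 5 genes was higher in 4 of 4 mice. Csrp1, a LIM protein of the serum response factor list, and Mfge8, a secreted glycoprotein, completed the 10.

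**Figure D5:**
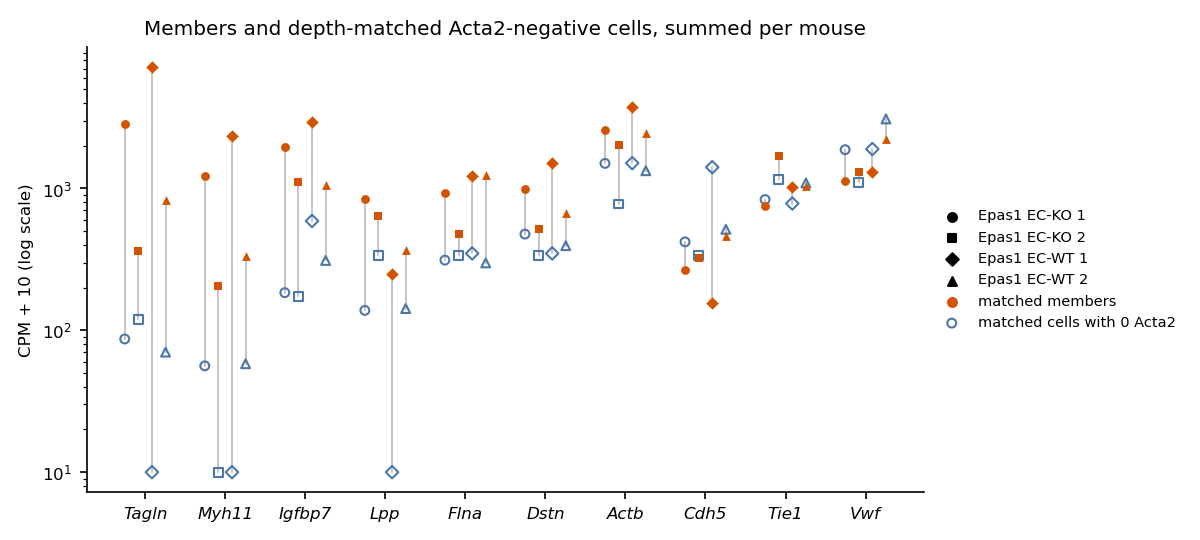
CPM plus 10 (log scale) of the 7 genes called and higher in 4 of 4 mice, and of 3 endothelial genes, in paired members (filled) and their depth-matched Acta2-negative partners (open), 1 symbol per mouse. Every filled symbol of the first 7 genes lies above its open partner, and every filled Cdh5 symbol lies below.

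Of all 938 genes 1.07% were called, and the median log2 difference was 0.02. The smooth muscle list had 4 of its 20 genes tested, of which 3 rose, with a median of 3.01. Tagln and Myh11 held few UMIs in the partners and could be tested mainly through the members, so this count and median describe the list and do not measure it against other genes. The other 16 had too few UMIs for the test. Myl9 held 165, 1, 50 and 40 UMIs in the paired members against 0, 0, 0 and 1 in their partners. Cnn1 held 56, 1, 7 and 12 against 0 in every mouse, and Tpm2 87, 0, 44 and 11 against 0. Itga8 (125, 0, 3 and 12 against 1, 0, 0 and 0), Lmod1 (26, 0, 2 and 9 against 0) and Smtn (61, 2, 14 and 12 against 3, 2, 1 and 5) were likewise mostly counted in EC-KO 1. Mylk, Synpo2 and Mustn1 were higher in members in 3 of 4 mice, Sncg in 2 of 4, and Actg2 was counted in EC-KO 1 alone.

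Of the endothelial list 14 of 20 genes were tested and none was called (edgeR; DESeq2 called none of them either), with a median of -0.19. Cdh5 was lower in CPM in 4 of 4 mice, with 55, 8, 3 and 43 UMIs against 80, 6, 29 and 42. In EC-KO 2 it was at 314 against 328 CPM, so the order there rests on few UMIs. The difference was -0.74 ± 0.33 with an adjusted p of 0.70, and -0.39 ± 0.30 without EC-WT 1. Tek (-0.46), Sox18 (-0.62) and Mmrn2 (-0.41) were also lower in CPM in 4 of 4 mice without passing the test. Egfl7, Vwf, Ptprb and Icam2 lay between -0.55 and -0.15, and Tie1, Eng, Esam, Cldn5, Nos3 and Ecscr between 0.10 and 0.19. Of the genes with too few UMIs, Flt1 and Sox17 were higher in CPM in members in 3 of 4 mice and Emcn in 1.

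The other lists held few tested genes. The mesenchymal transition list had 3 genes tested and none called, with a median of 0.46, and the fibroblast list had 4 tested and none called, with a median of 0.53. The TGF-beta and BMP list, the ligands, receptors and targets of the pathway most tied to endothelial-to-mesenchymal transition, had 9 tested and none called, with a median of 0.19. In the actin list 1 of 2 (Actb) and in the list of serum response factor and its regulators 1 of 3 (Csrp1) rose. Over all 938 genes 1.07% were called, and with so few genes tested these counts do not measure the lists against other genes.

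These calls rested on few cells. Without EC-KO 1, 2 genes (Igfbp7 and Flna) were called, without EC-KO 2 23, without EC-WT 1 7 and without EC-WT 2 3 (Igfbp7, Csrp1 and Flna). In the fits without EC-KO 1 and without EC-WT 2, 375 and 353 genes had enough UMIs to be tested, and Tagln and Myh11 were not among them. No gene was called on read counts, with each cell weighted equally (limma) or against cells with 0 to 2 Acta2 UMIs, with 81, 346 and 76 genes at an unadjusted p under 0.05. With thresholds of 2 UMIs edgeR called Mylk and Igfbp7 and not Tagln (3.96 ± 0.61, adjusted p = 0.14). Without the replicate block it called neither Tagln (5.34 ± 1.18, adjusted p = 0.26) nor Myh11 (4.63 ± 0.94, adjusted p = 0.12). The differences themselves stayed positive. With equal weights Tagln stood at 5.36 ± 0.85 and Myh11 at 4.84 ± 0.85, on read counts at 5.60 ± 2.58 and 8.25 ± 2.10, and against cells with 0 to 2 Acta2 UMIs Tagln stood at 3.53 ± 1.29.

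Without depth matching, all 103 members entered against all 170 Acta2-negative cells. Of 4372 genes tested 39 (0.892%) were called, 35 higher (0.801%) and 4 lower (0.0915%), and 8 of the 10 matched calls were among them. The smooth muscle list had 14 genes tested and 11 called, all higher. Several of these genes held few or no UMIs in the Acta2-negative cells and could be tested only through the members, so the limit given for the matched fit holds here too. The largest were Myl9 (7.52 ± 0.50, with 165, 402, 50 and 40 UMIs against 0, 0, 3 and 2), Tpm2 (7.12 ± 0.55) and Cnn1 (6.96 ± 0.86). Tagln, at 5.07, did not pass this test, with an adjusted p of 1.00. The 4 lower genes were Fabp4 (-1.57 ± 0.31), a fatty acid carrier, Cd36 (-2.05 ± 0.54), a fatty acid receptor of capillary endothelium, Gkn3 (-1.76 ± 0.37) and Gm10845 (-0.91). Fabp4 held 36, 174, 4 and 31 UMIs in members against 162, 6, 119 and 160, over unequal totals. Depth differed between the classes here, and its part in these calls was not tested.

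Read-supported members were tested in the same way. They were paired with Acta2-negative cells within a factor of 1.5 in UMI total, which EC-KO 1, EC-WT 1 and EC-WT 2 allowed. By edgeR 29 of 1025 genes (2.83%) were called, 26 higher (2.54%) and 3 lower (0.293%). All members of the same 3 mice gave 23 calls, so the number without EC-KO 2 is the one to set beside it. The smooth muscle list had 10 genes tested and 9 of them rose, with the same limit. Against all Acta2-negative cells 78 of 3621 genes (2.15%) were called, 60 higher (1.66%) and 18 lower (0.497%).

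The second contrast took the Acta2-low members alone, paired anew. EC-KO 2 and EC-WT 1 gave 4 and 3 pairs, under the minimum of 5, so EC-KO 1 (20 pairs) and EC-WT 2 (9 pairs) entered. Of 2572 genes 2 (0.0778%) were called by edgeR, both lower in members, and none higher (119 genes in either direction at an unadjusted p under 0.05; DESeq2 called 0). Dll1, a Notch ligand, held 11 and 7 UMIs against 60 and 15 and was lower by -2.06 ± 0.49. Egfl7, a matrix protein secreted by endothelial cells, held 79 and 32 against 114 and 87 and was lower by -1.07 ± 0.25 (adjusted p = 0.023 for both). In the mice left out of the test the order was not the same. Dll1 held 8 and 6 UMIs in the paired members of EC-KO 2 and EC-WT 1 against 2 and 4, and Egfl7 26 and 11 against 13 and 3.

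No smooth muscle gene was called in the Acta2-low members. Of the list 4 genes were tested, with a median of -0.00 against 0.00 over all genes, and Tpm1 (0.29), Cald1 (0.19) and Sncg (-0.20) were among them. Tagln and Mylk had too few UMIs to be tested, Tagln holding 73 and 5 UMIs against 11 and 5 and Mylk 5 and 0 against 10 and 5. The endothelial list had 16 tested and 1 called (Egfl7), where 0.0778% of all 2572 genes were called. Its median was -0.17, and Cdh5 stood at -0.17 ± 0.30. The mesenchymal transition list had 5 tested and none called, with a median of -0.03, the fibroblast list 5 and none with 0.71, and the TGF-beta and BMP list 14 and none with -0.07. Unmatched, with 3 mice, 2 of 4476 genes (0.0447%) were called, Fabp4 and Gkn3, again both lower. Both matched calls were lost in other fits of these 2 mice, with DESeq2 and without the block among them.

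The third comparison asked whether the members' transcripts differed by labelled genotype, with all members summed per mouse (28 and 58 against 6 and 11 cells). Of 4649 genes 5 (0.108%) were called by edgeR's quasi-likelihood test. Ncam1, a neural cell adhesion molecule, was 2.56 ± 0.52 higher in EC-KO members (adjusted p = 0.048), with 147, 227, 0 and 11 UMIs. That is 439 and 349 CPM against 0 (under the 145 that a count of 0 allows at this depth) and 85.3. In the Acta2-negative cells Ncam1 stood at 240, 438, 254 and 220, where the genotypes overlapped. The 4 lower genes rested on 3 to 10 UMIs in each EC-KO mouse and 2 to 32 in each EC-WT mouse. They made up 0.086% of the genes tested and were Igfbp5 (-4.00 ± 0.61), Lsm7 (-3.37 ± 0.68), Adra2a (-3.16 ± 0.58) and Got1 (-3.07 ± 0.60).

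The genes of interest did not separate by genotype. Tagln stood at 1822 and 1558 CPM in EC-KO members and at 7143 and 605 in EC-WT members, a difference of -0.85 ± 1.43 (adjusted p = 0.98). Myh11 was at 798 and 874 against 2317 and 248 (-0.06 ± 1.19, adjusted p = 1.00), and Cdh5 at 290 and 398 against 145 and 403 (0.14 ± 0.39, adjusted p = 0.99). The EC-WT values enclosed the EC-KO values for all 3. In EC-WT 1, 3 of 6 members were Acta2-rich, against 1 of 11 in EC-WT 2, and the part of this makeup in the values was not tested. The endothelial list had 17 genes tested, the smooth muscle list 17 and the TGF-beta and BMP list 21, and none of these genes was called (medians 0.07, -0.14 and 0.40, against 0.07 over all genes). The lists of other cell types and of the response to tissue dissociation had no call either but larger medians, 0.99 over 7 fibroblast genes, all of them positive, 0.88 over 4 pericyte genes and 0.86 over 8 dissociation genes, 6 of them positive. Their part in the genotype results was not tested. Epas1 itself was 0.48 ± 0.32 higher in EC-KO members with an adjusted p of 0.84. Without EC-WT 1, Tagln (1.57) and Myh11 (1.84) were called higher in EC-KO members, and without EC-WT 2 both were called lower (-1.59 and -0.98). In each of these fits 1 EC-WT mouse stands alone and is assumed to vary like the EC-KO pair. With DESeq2, on read counts and in read-supported members alone no gene was called, and leaving out either EC-KO mouse also left none, while leaving out EC-WT 1 gave 47 calls and leaving out EC-WT 2 gave 100. The count with the block on mouse number was 1 (Lsm7).

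Whether the contrast between members and Acta2-negative cells differed by genotype was tested as an interaction. Of 1500 genes 1 (0.0667%) was called, the fibrillar collagen Col3a1, whose member contrast was 3.66 ± 0.82 larger on the log2 scale in EC-KO (adjusted p = 0.042). Its UMIs were 424 and 3 in the paired EC-KO members and 2 and 80 in the EC-WT ones, against 23 and 0, and 12 and 24, in their partners. Of the 424 UMIs 348 came from 1 cell, the 3 of EC-KO 2 also came from 1 cell, and the call was lost without EC-KO 1 or EC-WT 1, with DESeq2 and on read counts.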

How the data were processed

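The authors sorted single cells of the aorta by flow cytometry and sequenced them by SORT-seq, and deposited for each plate a table of UMI counts, a table of read counts and a table of expected counts of transcripts, which correct UMIs for saturation. The submitters' processing notes name BWA 0.7.15, Seurat and the builds GRCm38 and mm10, with no role given there, and the study's methods name Seurat for clustering, which is not used here. Per the labels, each plate is 1 mouse. The deposited UMI counts were used for all main results, the deposited read counts for reads per UMI, and the transcript counts as an alternative.

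The plates held 910699 to 1475546 UMIs, and intervals are exact 95% binomial intervals that cover counting error only. Spike-in and mitochondrial rows were left out of all sums. CPM are a class's UMIs scaled to a total of 1000000. The members and gene lists were chosen with earlier results of these data known. Member and comparison cells were paired greedily within a plate, from the deepest member down, within a factor of 1.5, and a mouse needed 5 pairs. UMIs were summed per mouse and class and fitted in R 4.3.3 with edgeR 4.0.16 (TMM, filterByExpr, robust quasi-likelihood test, Benjamini-Hochberg, called at an adjusted p under 0.05), with mouse as a block in the member contrasts. Acta2 and Pecam1, which the rule used, are left out of counts of calls. For edgeR fits, the SE is the absolute log2 difference divided by the square root of the test's F statistic. It was derived from the test and need not match the adjusted p. DESeq2 1.42.0 and limma 3.58.1 (pseudocount of 10 CPM) were alternatives. The study's tests over single cells were not used, since cells of a plate are not replicates. Other computations used Python 3.11.15, numpy 2.4.6, pandas 2.3.3 and scipy 1.17.1. No doublet caller was run, and cells over 3 times the plate's median were left out in an alternative. Named genes were the 10 largest rises and falls among calls that moved alike in every mouse (5 for genotype, without overlap between groups), and the smooth muscle and endothelial genes with at least 20 UMIs. Tpm1, Csrp1, Mfge8 and the genes named outside the matched contrasts were chosen after their values were seen. Other alternatives changed the UMI minimum, the thresholds of the rule, normalization, filter, matching, block and mice included. On data simulated for the matched contrast of all members, 157 of 157 tested genes with a log2 change of 2 were recovered, with 7 false calls. For the Acta2-low contrast 138 of 160 were recovered with 1 false call, for genotype 97 of 149 with 8 and for the interaction 32 of 184 with 2. Each simulation changed 200 genes, and only those tested are counted. It drew sums per mouse from the dispersions fitted to these data, without single cells. It therefore cannot show how the fits behave where 1 cell carries a sum. Mouse numbers are shared by the genotypes, but the labels give no shared litter or day, and deviations of same-numbered mice correlated at -0.22 over 356 genes. The values of 1 gene of the lists are not reported here.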

Additional observations from a re-analysis of the deposited data

Results flagged for a closer look

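The contrast between members and depth-matched Acta2-negative cells differed between the labelled genotypes for 1 gene, Col3a1, a fibrillar collagen of the vessel wall. The difference was 3.66 ± 0.82 on the log2 scale (edgeR's quasi-likelihood test of the interaction, adjusted p = 0.042). Col3a1 stood at 1973 and 118 CPM in the paired members of EC-KO 1 and EC-KO 2 against 118 and 0 in their partners. It stood at 96.5 and 842 in the paired members of EC-WT 1 and EC-WT 2 against 580 and 289. Members were above their partners in EC-KO 1 and EC-WT 2 and below them in EC-WT 1. In EC-KO 2 the value rested on 3 UMIs of 1 cell, and the 0 of the partners allows up to 164 CPM (3 counts), so no order can be read there. A single cell gave 348 of the 424 UMIs in EC-KO 1, and 1 cell 54 of the 80 in EC-WT 2.

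Acta2 was also counted in wells that were not kept as cells. Wells with under 200 UMIs (204, 244, 210 and 259 wells in EC-KO 1, EC-KO 2, EC-WT 1 and EC-WT 2) held 53, 91, 5 and 19 Acta2 UMIs and 51, 84, 55 and 95 Pecam1 UMIs. Acta2 and Pecam1 were thus about as frequent there on both plates labelled EC-KO, and Acta2 was the less frequent on both labelled EC-WT. Its UMIs were read 13, 13.2, 1.80 and 1.89 times each. In the same wells Tagln had 13, 6, 0 and 1 UMIs and Myh11 9, 14, 0 and 1. That is 24.5, 6.59, 0 and 5.26 Tagln UMIs per 100 Acta2 UMIs. The part of this signal in the counts of the members was not tested.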

How the results depend on the processing

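The difference in the share of members kept its direction in all 15 settings, from 5.32 to 53.9 points. At a minimum of 2000 UMIs EC-KO 2 gave 3 pairs and did not enter the matched member contrast, so that setting changed the mice as well. For the matched member contrast (10 calls), 21 genes were called at a minimum of 2000 UMIs, 2 with thresholds of 2 UMIs, 5 without cells over 3 times the plate's median, 0 on read counts, 6 by DESeq2, 30 without the low-count filter, 2 to 23 without 1 mouse, 39 without matching, 38 against negative cells in the range of member depths, 0 with cells weighted equally, 3 without the replicate block, 3 in the 2 mice of the shared flow cell, 0 against cells with 0 to 2 Acta2 UMIs, and 29 (78 unmatched) in read-supported members. For the Acta2-low members (2 calls) the count was 0 at a minimum of 500 UMIs, with thresholds of 2, without the deepest cells, on read counts, by DESeq2, with total-count normalization, without the filter, with equal weights and without the replicate block, 7 in the range of depths and 4 in unmatched read-supported members. For genotype (5 calls) it was 2 without the mitochondrial limit, 0 with thresholds of 2, 1 without the deepest cells, 0 on read counts, by DESeq2 and in read-supported members, 2 without the filter, 0 to 100 without 1 mouse, and 1 both with the replicate block and with the crossed pairing, which was chosen after seeing the data. Tagln, at -0.85, ranged from -1.59 to 1.57 without 1 mouse and turned to 0.38 with thresholds of 2 and 0.21 in read-supported members. Without cells over 3 times the median it was -1.69, and Myh11 -1.70. Myh11, at -0.06, ranged from -0.98 to 1.84 without 1 mouse and turned to 1.09 and 0.85, to 0.20 without the filter, 0.28 with the replicate block and 0.26 with the crossed pairing. For the interaction (1 call) the count was 2 on transcript counts, 0 on read counts, by DESeq2, without the filter, without Rn45s and without matching, and 0 to 1 without 1 mouse. The cause of these changes was not tested. With the replicate block the exact p of the share was 0.50. Thresholds of 5 UMIs left too few mice for the contrasts, and leaving out a mouse left no residual degrees of freedom for the Acta2-low members. The genotype fit in the shared flow cell was not run. Genes with few UMIs per mouse limit every count here.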

Other observations

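Read-supported members and all members were set side by side, a choice made after the values were seen. The 18 genes that edgeR called lower in read-supported members against all Acta2-negative cells (0.497% of those tested) had 2 of the 17 tested genes of the endothelial list among them, Mmrn2 and Egfl7. Of these 17 genes 13 were negative and 4 positive, with a median of -0.34. Of the 39 genes called with all members and the 78 called with read-supported members 33 were in both lists, which is 84.6% of the first and 42.3% of the second. The 2 fits share most of their cells.

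Beside the contractile genes, the fit of all members against all Acta2-negative cells called other genes, named here after their values were seen and tested as no group. Postn, which encodes the matrix protein periostin, was 6.57 ± 0.82 higher on the log2 scale, with 127, 128, 1 and 11 UMIs against 0, 0, 0 and 1 in EC-KO 1, EC-KO 2, EC-WT 1 and EC-WT 2. Col1a1, a chain of type I collagen, was 5.04 ± 0.65 higher, with 129, 51, 2 and 22 UMIs against 5, 0, 0 and 0. Serpine2 (5.77), Ogn (5.17), Nov (4.20), Col6a1 (3.46), Ctgf (3.11) and Col3a1 (2.10) were also called and higher. Single cells can carry such sums. Among the depth-matched members, 1 cell gave 348 of the 424 Col3a1 UMIs of EC-KO 1, and 1 cell 54 of the 80 of EC-WT 2. How far single cells carried the other genes was not tested, so the calls describe sums and not each member. Postn was the 1 call among 6 tested genes of the mesenchymal transition list, and Col1a1 and Col3a1 were the 2 calls among 6 of the fibroblast list, where 0.892% of all 4372 genes were called. Postn and Col1a1 held few or no UMIs in the Acta2-negative cells and could be tested only through the members, so these counts do not measure the lists against other genes. Of the TGF-beta and BMP list 20 genes were tested and 2 called, the ligand Tgfb2 (2.61) and Ltbp1 (2.32), which binds latent TGF-beta in the matrix. No pericyte or smooth muscle cell type was assigned to these cells here, and the fold changes of genes with 0 UMIs in a class depend on the prior count.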
